A study of Rattus norvegicus with 56 samples.

Results

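The livers of adult male rats raised on a Western diet with fructose were compared with those of male controls at one time of day, zeitgeber time 4 (ZT4, 4 h after lights on). The comparison holds 6 of the 56 liver RNA-seq libraries of the series, chosen by their labels for sex, time and diet: 3 of the HFhf group and 3 of the CON group. All came from Sprague-Dawley offspring aged 180 days, kept in cycles of 12 h light and 12 h dark. In the HFhf group the dams went onto a Western diet plus drinking water holding 25% fructose at gestation day 11, and the submitters describe that diet as kept up until the offspring were sampled, while CON animals had regular chow all along. The IUGR-HFhf group, used below for side-by-side values, came from dams cut to 50% of their calories from gestation day 10 and moved to the HFhf diet after birth, and the IUGR-RC group from restricted dams moved to chow. Littermates may be among the animals, since no litter is labelled. Each p-value rests on the spread between libraries within the 16 groups of the whole series of 56, whatever its source. The tissue label reads mouse liver and the organism label rat, and the molecule label reads polyA RNA although the library kit removes ribosomal RNA.

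The liver clock is a transcriptional loop in which BMAL1 (gene Arntl) with CLOCK or NPAS2 drives the Period, Rev-erb (Nr1d1, Nr1d2) and Dbp genes, and the Rev-erb proteins repress Arntl and Npas2 in turn. In nocturnal rodents the loop is set largely by the light cycle in the brain and by feeding time in the liver. Cholesterol synthesis is driven by SREBP2, which dietary sterol keeps in the endoplasmic reticulum, while fatty acid synthesis is driven by SREBP1c, by ChREBP and by insulin, and fructose is a well known inducer of it.

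Counted reads came to 6427857, 6898852 and 7097679 in the CON libraries and to 11351034, 7973575 and 9254623 in the HFhf libraries, so every HFhf library was deeper than every CON library. Markers of hepatocytes summed to 174000 to 192000 CPM, read counts scaled to a common library size, in CON and 176000 to 206000 in HFhf. Markers of skeletal muscle summed to 7.46 CPM in HFhf replicate 3 and to at most 1.5 in the other libraries, with Ckm, Myh2, Myh4 and Tnni2 at 0 in all 3 CON libraries. Of the 11047 genes tested, 76 (0.688%) had an adjusted p below 0.05 by edgeR, fitted over all 56 libraries, and these are the genes called below. They were 32 genes higher in HFhf (0.29% of those tested) and 44 lower (0.398%). Each gene is described by its normalized CPM, per library in replicate order.

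Of the 76 genes, 46 changed by at least 1 on the log2 scale, 12 upward and 34 downward, and in 75 the 2 groups did not overlap, Ugcg being the exception. Over all tested genes, every HFhf library lay above every CON library in 9.58% and below in 8.34%. The calls rest on few libraries. Leaving out 1 library at a time gave 25, 6 and 19 calls without CON replicates 1, 2 and 3, and 2, 84 and 9 without HFhf replicates 1, 2 and 3. Of the 76 genes, Acsl3 and Sdr42e1 were called in all 6 of these fits, Marco and Ttc7b in 5, and 25 genes in none. All 36 called genes that were named by rule kept their direction in all 6 fits, which groups without overlap make all but certain. Of the 36, 14 lost their call in every one of these fits: Acaca, Acot12, Anxa7, Atp2b2, Dgat2, Dusp8, Idi1, Il6r, Lepr, Ppard, Ryr2, Sqle, Thrsp and Tm6sf2. With the 6 libraries thinned to equal depth 54 genes were called, 52 of them among the 76. The number also grew with other choices of libraries: 158 genes were called from the 6 libraries alone (48 of the 76 among them) and 162 without the IUGR-RC libraries (76 of the 76 among them). The authors' deposited table for this comparison calls 135 genes, and 73 of the 76 are among them, all in the same direction in the authors' deposited table.

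**Figure D1:**
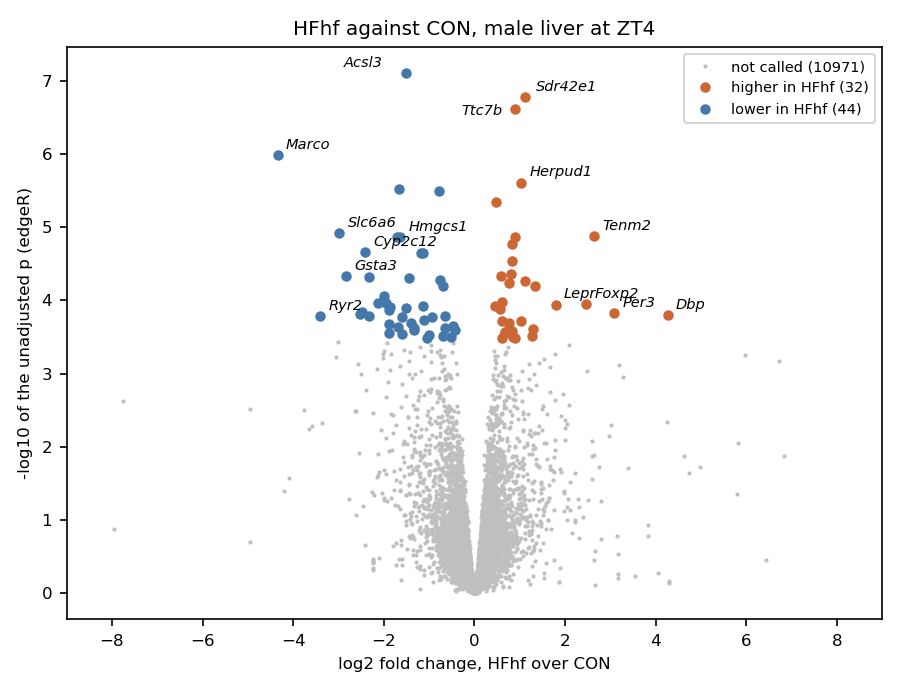
Log2 fold change of HFhf over CON (x axis) against -log10 of the unadjusted edgeR p (y axis) for the 11047 tested genes of male liver at ZT4, with the 32 called higher and the 44 called lower in colour. Acsl3, Sdr42e1 and Ttc7b have the smallest p, while Marco and Dbp have the largest changes among the called genes, one down and one up.

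The largest change upward among the called genes was in the clock's output. Dbp, a PAR bZIP transcription factor that CLOCK and BMAL1 drive and that paces many liver genes, was at 3.56, 4.49 and 6.47 CPM in CON and at 115, 60.2 and 106 CPM in HFhf. The lowest HFhf library was far above the highest CON library. The log2 fold change was 4.27 ± 1.02 (SE, adjusted p = 0.0385), or 19.3-fold. Per3, a period gene, was at 3.27, 2.11 and 5.43 CPM in CON and at 35, 20.7 and 36.4 CPM in HFhf, again without overlap (log2 fold change 3.09 ± 0.74, adjusted p = 0.0385). Nfil3, a repressor that competes with DBP for the same sites, fell: it was at 52.6, 80.9 and 64.5 CPM in CON and at 24.2, 36.5 and 29.6 CPM in HFhf (log2 fold change -1.14 ± 0.24, adjusted p = 0.0147). So a driver of D-box genes was higher and its competitor lower in each of the 3 HFhf libraries than in any CON library.

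Most other clock genes lay apart between the groups too, short of the threshold. Of the 15 clock genes tested 2 were called higher and 1 lower, against 0.29% and 0.398% of all tested genes. Without overlap 9 lay higher and 4 lower, against 9.58% and 8.34% of all tested genes, and only Cry1 and Bhlhe40 overlapped. Nr1d1, which encodes the repressor REV-ERB alpha, was at 23.2, 20.3 and 64.5 CPM in CON and at 176, 153 and 129 CPM in HFhf (log2 fold change 2.08 ± 0.54, adjusted p = 0.0554). Arntl, which REV-ERB alpha represses, was at 60.6, 54.5 and 48.6 CPM in CON and at 13.6, 20.5 and 13.3 CPM in HFhf (log2 fold change -1.80 ± 0.58, adjusted p = 0.151). Npas2 stood at 45.2, 47.5 and 47.7 CPM in CON and at 19.8, 27.8 and 18.2 CPM in HFhf, with a log2 fold change of -1.10 and adjusted p = 0.518. For Nr1d1, Arntl and Npas2 no HFhf library reached into the CON range. The median log2 fold change of the 15 genes was 0.927 (all tested genes 0.0102). Dbp and Per3 each stayed called in 1 of the 6 fits with a library left out, with log2 fold changes of 4.08 to 4.53 and 2.81 to 3.52. Nfil3 stayed called in 3 of them.

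The same genes went the other way at ZT16, 12 h later, in other male rats of the 2 groups (3 CON and 4 HFhf libraries). Dbp was at 138.9, 58.4 and 58.5 CPM in CON at ZT16 and at 14.7, 12, 18 and 11 CPM in HFhf. Arntl was at 2.36, 8.82 and 9.95 CPM in CON at ZT16 and at 31.3, 41.1, 31 and 39.9 CPM in HFhf. Npas2, at most 0.315 CPM in CON at ZT16, lay between 3.93 and 15.3 CPM in HFhf. Set beside the levels at ZT4, Dbp in CON was low at ZT4 and high at ZT16, and Dbp in HFhf was high at ZT4 and low at ZT16. The difference of the HFhf effect between the times (ZT4 minus ZT16) was 6.87 ± 1.31 (SE) on the log2 scale for Dbp (adjusted p = 0.00342), 5.35 for Nr1d1 (adjusted p = 0.00097), 5.03 for Per3, 2.87 for Nr1d2, -4.10 for Arntl, -6.44 for Npas2 and -1.53 for Nfil3. These are the 7 of 15 clock genes whose difference was called.

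**Figure D2:**
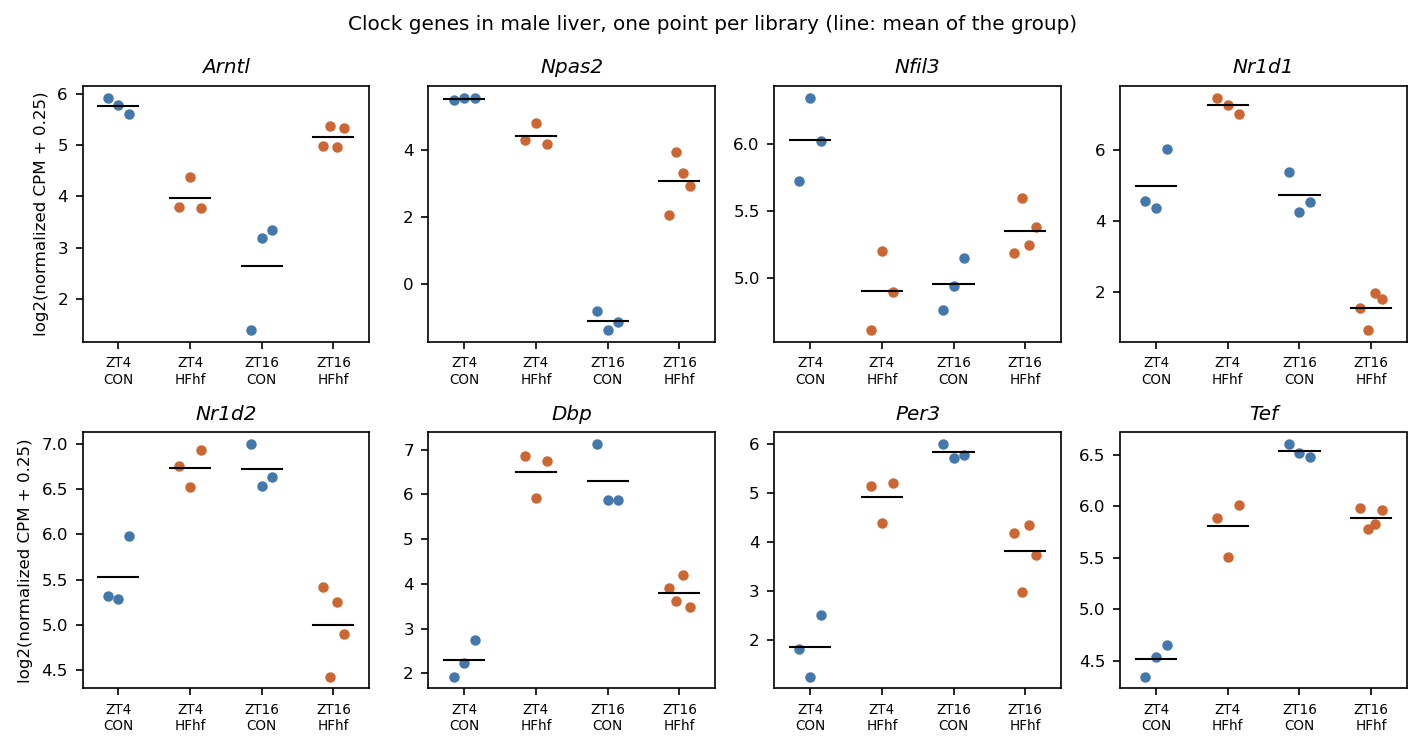
Level of 8 clock genes in the 13 male CON and HFhf libraries at ZT4 and ZT16, as log2 of normalized CPM plus 0.25 (y axis), 1 point per library and a line at the group's mean of the plotted values. In CON Dbp, Per3, Nr1d2 and Tef are low at ZT4 and high at ZT16, and Arntl and Npas2 the reverse, while the HFhf libraries at ZT4 lie on the ZT16 side of the CON libraries at ZT4 for each of these 6 genes.

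Over all tested genes the difference between the times was called for 50 (0.453%), 20 with the more positive HFhf effect at ZT4 and 30 with the more negative one. In all 50 the fitted effect had opposite signs at the 2 times, which choosing genes by their difference favours. Of the 50, 12 were also called at ZT4 and 23 at ZT16. Ppard, the gene of the lipid sensor PPAR delta, is among the 12: it was at 46.4, 28.4 and 25.3 CPM in CON and at 13.3, 10.7 and 8.77 CPM in HFhf at ZT4, a log2 fold change of -1.60, against 1.63 at ZT16, so it fell at one time and rose at the other. Hsd17b2, an enzyme that inactivates oestradiol and testosterone, was at 42, 80.2 and 66.2 CPM in CON and at 286, 315 and 448 CPM in HFhf at ZT4. That gap did not pass the test (log2 fold change 2.48, adjusted p = 0.0782), and its difference from ZT16 was 4.58 (adjusted p = 0.00771). The number of differences called ranged from 25 to 63 with 1 library left out, the lowest without CON replicate 1 at ZT16, and was 28 without HFhf replicate 1 and also without HFhf replicate 3 at ZT4.

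**Figure D3:**
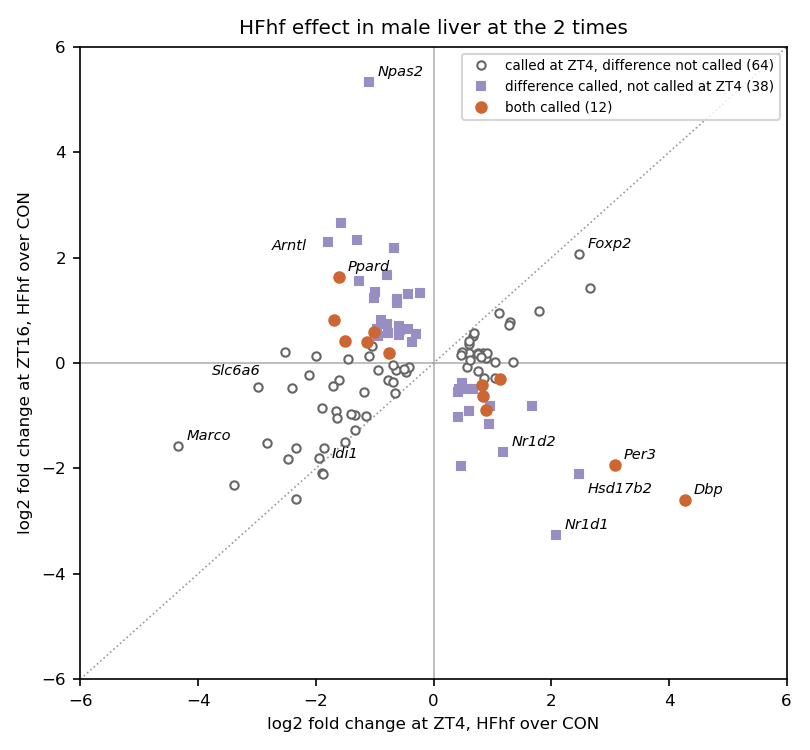
Log2 fold change of HFhf over CON in male liver at ZT4 (x axis) and at ZT16 (y axis) for genes called at ZT4, genes whose effect differed between the times, or both, with a dotted line where the effects are equal. The 12 genes with both calls lie in the quadrants of opposite sign, with Dbp at 4.27 and -2.60, while Idi1, Foxp2 and Marco have the same sign at both times.

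Time of day itself was read from CON females, which share no library with this comparison. Between ZT16 and ZT4, 639 genes differed there (5.78% of those tested), and 17 of the 76 genes called here were among them, which is 22.4% of the 76 and 2.66% of the 639. Of the 17, 7 were higher in HFhf and at ZT16, 10 were lower in both, and 0 went in opposite directions. Dbp had a log2 fold change of 4.88 and Per3 of 4.41 from ZT4 to ZT16 in CON females. Slc6a6, Atp2b2, Ppard, Rnf125 and Nfil3, lower in HFhf at ZT4, were at -3.18, -3.25, -2.40, -1.78 and -0.82. Of the 4 called cholesterol genes, Dhcr7 was among the 10 lower in both, at -0.77 (adjusted p = 0.0309) in CON females. Hmgcs1 at 0.38 (adjusted p = 0.589), Idi1 at 0.83 and Sqle at 0.76 had fitted changes above 0 there, none of them called.

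Promoters of clock genes are shown because most of these genes lay apart between the groups, some higher and some lower. The sequences are from RefSeq on GRCr8 (250 bases before to 50 after the start), for 14 of the 15 tested clock genes. The E-box CACGTG, the site of CLOCK and BMAL1, was found on either strand (it reads the same on both) in 3 of the 14, Ciart, Tef and Bhlhe40, against 9.3% of the promoters of tested genes and 6.42% of all promoters. Ciart, a repressor of CLOCK and BMAL1, holds it 3 times. The nuclear receptor element AGGTCA, which REV-ERB and ROR proteins bind, was in 2 of the 14, against 12.3% of tested genes, and the D-box TTATGNAA in 1, against 1.92%. The capitals below mark E-boxes in Ciart (chr2:186112197-186112496, minus strand) and Tef (chr7:115206577-115206876, plus strand) and that element in Arntl (chr1:176766078-176766377, plus strand).
Ciart: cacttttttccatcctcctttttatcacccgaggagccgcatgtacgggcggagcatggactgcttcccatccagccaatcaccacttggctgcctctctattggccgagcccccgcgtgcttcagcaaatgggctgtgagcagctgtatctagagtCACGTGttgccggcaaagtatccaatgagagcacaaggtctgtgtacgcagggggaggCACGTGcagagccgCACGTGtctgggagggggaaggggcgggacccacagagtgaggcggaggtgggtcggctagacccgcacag
Tef: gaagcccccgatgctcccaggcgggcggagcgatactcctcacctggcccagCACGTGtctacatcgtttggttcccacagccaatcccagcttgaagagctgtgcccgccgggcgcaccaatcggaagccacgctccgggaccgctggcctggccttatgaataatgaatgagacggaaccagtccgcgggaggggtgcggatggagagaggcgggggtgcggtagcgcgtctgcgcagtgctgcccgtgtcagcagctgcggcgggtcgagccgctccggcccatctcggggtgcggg
Arntl: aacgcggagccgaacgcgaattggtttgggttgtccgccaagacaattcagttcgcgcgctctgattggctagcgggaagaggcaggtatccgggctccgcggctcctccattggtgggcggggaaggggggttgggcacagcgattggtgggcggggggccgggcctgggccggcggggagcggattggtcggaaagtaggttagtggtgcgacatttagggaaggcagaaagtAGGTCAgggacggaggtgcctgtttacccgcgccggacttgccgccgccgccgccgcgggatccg

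Ciart went from 0.142, 0.264 and 0.388 CPM in CON to 2.84, 0.613 and 3.12 CPM in HFhf, low counts in which the groups did not overlap (log2 fold change 3.01, adjusted p = 0.174). Tef, a relative of Dbp, was at 20.1, 23.0 and 25.0 CPM in CON and at 59, 45.2 and 64.3 CPM in HFhf (log2 fold change 1.31, adjusted p = 0.0828). Dbp, Per3, Nr1d1 and Arntl hold no CACGTG in this window, which says nothing of sites elsewhere in these genes.

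Cholesterol synthesis was lower. All 22 enzymes of the pathway were tested, and all 22 had fold changes below 0 with a median of -0.748. Over the whole set, 5311 of the 11047 tested genes were below 0. Of the 22, 15 lay below CON without overlap, as did 8.34% of all tested genes. Of the 22, 4 were called lower and none higher, against 0.398% and 0.29% of all tested genes. Hmgcs1, the HMG-CoA synthase early in the pathway, was at 586, 764 and 695 CPM in CON and at 201, 249 and 207 CPM in HFhf (log2 fold change -1.64 ± 0.33, adjusted p = 0.0115). Its highest HFhf library lay far below its lowest CON library. Idi1, the isopentenyl diphosphate isomerase, was at 40.4, 60.9 and 36.3 CPM in CON and at 11.9, 12.7 and 11.2 CPM in HFhf (log2 fold change -1.94 ± 0.45, adjusted p = 0.0365). Sqle, the squalene epoxidase and a control point of the pathway, was at 30.6, 42.8 and 31.2 CPM in CON and at 13, 9.44 and 5.46 CPM in HFhf (log2 fold change -1.89 ± 0.48, adjusted p = 0.0461). Dhcr7, which takes the last step to cholesterol, was at 178, 185 and 160 CPM in CON and at 103, 103 and 66.7 CPM in HFhf (log2 fold change -0.94 ± 0.23, adjusted p = 0.0385). All 4 fell without overlap, but Hmgcs1 stayed called in 3, Dhcr7 in 1, and Idi1 and Sqle in 0 of the 6 fits with a library left out.

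Several other members had changes of similar size without passing the test. Msmo1 had a log2 fold change of -1.56 (adjusted p = 0.0615), Hsd17b7 -1.42, Tm7sf2 -1.27 and Cyp51 -1.20. Genes that SREBP2 drives outside synthesis gave 0 calls among 14 tested, with 6 fold changes above 0 and 8 below. Srebf2 itself, which encodes SREBP2, was at -0.32 on the log2 scale. At ZT16 the same pathway had 5 genes called lower and none higher, with a median of -0.532, and in females at ZT4 it had 8 called lower and none higher, with a median of -0.901. No cholesterol gene had a called difference between ZT4 and ZT16.

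Cholesterol promoters are shown because the pathway moved together and because NF-Y, which binds the CCAAT box, acts beside SREBP at sterol-controlled genes. CCAAT was found on either strand in 14 of the 17 cholesterol genes with a promoter (82.4%), against 38.1% of the promoters of tested genes and 37.5% of all promoters. The sterol element core TCACNCCAC was in 0 of the 17, against 1.09% of tested genes. Of the 4 called genes, Sqle had no entry, Hmgcs1 (chr2:53382054-53382353, plus strand) and Idi1 (chr17:66547475-66547774, minus strand) held 2 matches each, all as ATTGG on the printed strand, and Dhcr7 held 0. Capitals mark these matches, and Fdps (chr2:176804767-176805066, minus strand), which was not called, is shown beside them with 1 on each strand.
Hmgcs1: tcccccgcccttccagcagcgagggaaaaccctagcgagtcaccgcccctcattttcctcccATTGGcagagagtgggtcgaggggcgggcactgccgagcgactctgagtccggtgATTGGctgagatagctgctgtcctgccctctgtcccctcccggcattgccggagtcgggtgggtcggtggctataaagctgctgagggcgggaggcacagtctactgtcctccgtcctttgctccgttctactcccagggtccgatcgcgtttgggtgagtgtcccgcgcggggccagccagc
Idi1: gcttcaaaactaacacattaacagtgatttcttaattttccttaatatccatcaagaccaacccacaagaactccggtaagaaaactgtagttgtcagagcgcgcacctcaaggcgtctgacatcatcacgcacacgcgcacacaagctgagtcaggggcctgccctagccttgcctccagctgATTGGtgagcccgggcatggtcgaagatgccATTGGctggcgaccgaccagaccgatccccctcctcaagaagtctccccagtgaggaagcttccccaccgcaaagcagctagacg
Fdps: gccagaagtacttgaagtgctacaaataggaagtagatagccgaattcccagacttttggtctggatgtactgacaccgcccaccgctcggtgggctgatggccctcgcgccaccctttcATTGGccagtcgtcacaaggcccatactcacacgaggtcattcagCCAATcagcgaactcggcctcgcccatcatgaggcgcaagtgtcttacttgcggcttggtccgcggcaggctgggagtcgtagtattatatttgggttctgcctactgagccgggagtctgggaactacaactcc

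Fatty acid and triglyceride synthesis leaned the opposite way. Of 26 genes tested, 23 had fold changes above 0 with a median of 0.48. Above CON without overlap lay 10 of the 26, as did 9.58% of all tested genes. Of the 26, 3 were called higher and 1 lower, against 0.29% and 0.398% of all tested genes. Thrsp (Spot 14), a protein that promotes lipogenesis, was at 771, 345 and 626 CPM in CON and at 1344, 1606 and 1331 CPM in HFhf (log2 fold change 1.30 ± 0.33, adjusted p = 0.0449). Acaca, the acetyl-CoA carboxylase that commits carbon to fatty acids, was at 378, 267 and 452 CPM in CON and at 1173, 811 and 682 CPM in HFhf (log2 fold change 1.28 ± 0.33, adjusted p = 0.0476). Dgat2, which makes triglyceride, was at 358, 299 and 260 CPM in CON and at 488, 514 and 466 CPM in HFhf (log2 fold change 0.68 ± 0.17, adjusted p = 0.0461). In each of the 3 the lowest HFhf library lay above the highest CON library, and each lost its call in every fit with a library left out.

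Several of the best known lipogenic genes did not pass the test. Scd1, the stearoyl-CoA desaturase, was at 6160, 4820 and 9100 CPM in CON and at 25031, 20822 and 18063 CPM in HFhf, a log2 fold change of 1.67 ± 0.50 (adjusted p = 0.107) with no overlap. Fasn, the fatty acid synthase, was at 1957, 860 and 2223 CPM in CON and at 6029, 3985 and 2791 CPM in HFhf (log2 fold change 1.34 ± 0.50, adjusted p = 0.251). Srebf1 was at 603, 497 and 777 CPM in CON and at 1184, 1222 and 1231 CPM in HFhf (log2 fold change 0.95 ± 0.32, adjusted p = 0.162). For Scd1, Fasn and Srebf1 every HFhf library exceeded every CON library. Pnpla3, whose human variant is linked to fatty liver, ranged from 22.1 to 322 CPM in CON and from 223 to 998.5 CPM in HFhf, so its groups overlapped. Acsl3, an acyl-CoA synthetase of lipid droplets, was the one member called lower: it was at 25.8, 41.5 and 42.5 CPM in CON and at 9.86, 16.5 and 12.6 CPM in HFhf. With a log2 fold change of -1.51 ± 0.24 and adjusted p = 0.00086, the smallest of all genes, Acsl3 fell in every one of the 6 fits with a library left out. Its fitted change at ZT16 was 0.42, and the difference between the times was -1.93 (adjusted p = 0.00185).

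**Figure D4:**
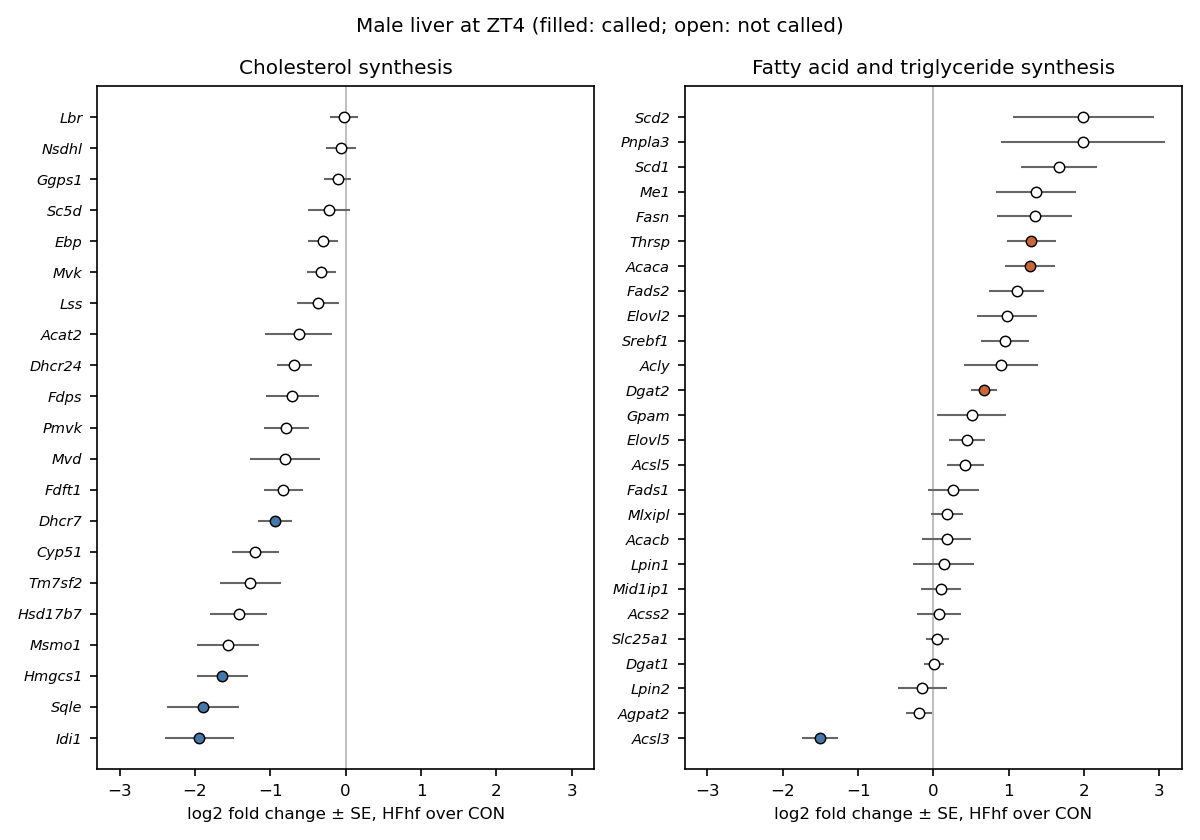
Log2 fold change of HFhf over CON with its SE (x axis) for 21 tested genes of cholesterol synthesis and the 26 of fatty acid and triglyceride synthesis (y axis) in male liver at ZT4, filled where called. All 21 cholesterol genes plotted lie below 0 and 23 of the 26 others above it, with Acsl3 at -1.51 apart from its list.

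In other lipid and sugar lists few genes were called. Over all tested genes 0.688% were called, 9.58% lay above CON without overlap and 8.34% lay below. Of 48 genes of fatty acid oxidation and PPAR alpha control, 35 had fold changes above 0, 17 lay above CON without overlap and 3 below, Acot12 was called higher and Acadm lower. Acot12, an acetyl-CoA thioesterase, was at 103, 97.1 and 93.9 CPM in CON and at 170, 162 and 160 CPM in HFhf (log2 fold change 0.75 ± 0.19). Acadm, the medium-chain acyl-CoA dehydrogenase, was at 660, 634 and 664 CPM in CON and at 406, 488 and 486 CPM in HFhf (log2 fold change -0.51 ± 0.13). Both were tight within their groups. Cpt1a, which admits fatty acids to mitochondria, was at 322, 222 and 280 CPM in CON and at 711, 541 and 655 CPM in HFhf, which did not pass (log2 fold change 1.21, adjusted p = 0.0856). Of 26 genes of lipid droplets and lipoproteins, 22 were above 0 and Tm6sf2, which loads lipid onto VLDL, was called higher (37.6, 28.8 and 35.4 CPM in CON, 58.5, 57 and 48.2 CPM in HFhf, log2 fold change 0.69). Pc, the pyruvate carboxylase, was the single call among 32 genes that make glucose or break down amino acids, with 748, 552 and 615 CPM in CON and 922, 951 and 1039 CPM in HFhf (log2 fold change 0.60). None of the 30 genes of fructose and glucose use was called, though 24 had fold changes above 0 and 12 lay above CON without overlap. Pklr, the liver pyruvate kinase, was at 511, 319 and 654 CPM in CON and at 1208, 986 and 871 CPM in HFhf (log2 fold change 1.05, adjusted p = 0.0782). Khk, the ketohexokinase that fructose enters by, was at 218, 214 and 214 CPM in CON and at 272, 265 and 259 CPM in HFhf, an offset of 0.30 on the log2 scale that did not pass (adjusted p = 0.645).

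A pair of taurine genes and some glutathione genes were lower. Csad, which makes the precursor of taurine, was the one call among 18 one-carbon and methionine genes, of which 9 had fold changes above 0 and 9 below (median -0.015). Csad was at 291, 383 and 371 CPM in CON and at 84.0, 144 and 55.9 CPM in HFhf (log2 fold change -1.88 ± 0.46, adjusted p = 0.0421). Slc6a6, the taurine transporter, was at 20.2, 54.8 and 28.1 CPM in CON and at 3.31, 4.78 and 5.07 CPM in HFhf (log2 fold change -2.98 ± 0.60, adjusted p = 0.0115). Both fell without overlap, although Slc6a6 is also one of the genes that differed by time in CON females, and Csad is not (0.01). Of 34 glutathione and NRF2 genes, 30 had fold changes below 0 with a median of -0.32. Without overlap lower were 12 of the 34 (8.34% of all tested genes), and 2 were called lower (0.398% of all tested genes). They are the glutathione transferases Gsta3, at 5.98, 25.0 and 10.6 CPM in CON and at 1.42, 1.47 and 2.92 CPM in HFhf, and Gsta1, at 554, 652 and 536 CPM in CON and at 285, 450 and 351 CPM in HFhf. Their log2 fold changes were -2.84 ± 0.62 and -0.68 ± 0.17. Gsta genes are close copies, and how the counting treated reads that fit several of them is not given in the sources used here.

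The largest fall among the called genes was in Marco, a scavenger receptor of macrophages that binds bacteria and modified lipoprotein. It was at 41.8, 39 and 33.1 CPM in CON and at 0.394, 4.29 and 1.46 CPM in HFhf, so that the highest HFhf library was far below the lowest CON library. The log2 fold change was -4.34 ± 0.76 (adjusted p = 0.00284), or 20.3-fold lower, and ranged from -5.42 to -3.77 with a library left out. The call was lost only without HFhf replicate 1 (adjusted p = 0.0799). In bulk liver, fewer cells of a type and less RNA per cell cannot be told apart. The other macrophage and Kupffer cell markers stood beside it as follows: of 14 tested, 13 had fold changes below 0, Marco alone was called, and Clec4f and Cd5l also lay below CON without overlap, with log2 fold changes of -0.60 (adjusted p = 0.33) and -0.84 (adjusted p = 0.292). Without Marco the other 13 markers summed to 665, 616 and 657 CPM in CON and to 428.5, 635 and 453 CPM in HFhf, overlapping, and none of the 14 was at 0 in either group. The part of cell numbers in the change of Marco was not tested. Mertk, an engulfment receptor of macrophages, rose from 21.3, 15.2 and 17.2 CPM in CON to 34.9, 23.0 and 41.4 CPM in HFhf (log2 fold change 0.89, adjusted p = 0.0115). Mertk is not on the marker list and was named after its values were seen.

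Marco was also lower in mean level in the HFhf groups of the other strata described here. In males at ZT4 the IUGR-HFhf libraries lay between 2.83 and 9.81 CPM and in males at ZT16 the HFhf libraries between 3.22 and 13.5 CPM, against 15.2 to 29.6 CPM in CON at ZT16. In females at ZT4 HFhf lay between 0.653 and 6.29 CPM and CON between 5.78 and 20.2 CPM, which overlap. Marco was not called at ZT16 in males (log2 fold change -1.57, adjusted p = 0.25) nor in females at ZT4 (-2.21, adjusted p = 0.17). Its difference between the times did not pass either (-2.77, adjusted p = 0.30).

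Among sex-biased liver genes, Cyp2c12 and Lepr were called. Cyp2c12, the classic female-specific cytochrome P450 of rat liver, under growth hormone control, was at 97.5, 157 and 188 CPM in CON males and at 11.1, 38 and 34.4 CPM in HFhf males (log2 fold change -2.41 ± 0.50, adjusted p = 0.0147). These male levels are a small remainder of the 3802 to 4911 CPM of CON females at ZT4. Its counterpart Cyp2c11, the main male-specific P450, was not called and overlapped between groups (1972, 1914 and 2126 CPM in CON, 2105, 2930 and 2484 CPM in HFhf). Lepr, the leptin receptor, which is higher in female rat liver, rose from 8.82, 10.0 and 8.79 CPM in CON to 25.8, 35.1 and 35.4 CPM in HFhf (log2 fold change 1.79 ± 0.42, adjusted p = 0.0365). So of 12 female-biased genes tested 1 was called higher and 1 lower, and of 14 male-biased genes none was called. Of these 14, 2 had fold changes above 0, Cyp2c11 among them, and 12 below (median -0.28). Without overlap, 3 of the 14 lay below CON and 0 above, against 8.34% and 9.58% of all tested genes. Il6r, the receptor of interleukin 6, rose from 106, 83.5 and 85 CPM in CON to 203, 181 and 179 CPM in HFhf (log2 fold change 1.04 ± 0.26). It was the one call among 22 acute phase genes, of which 15 had fold changes below 0.

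Sdr42e1 and Herpud1 had some of the smallest p-values. Sdr42e1, a short-chain dehydrogenase related to steroid enzymes, was at 40.7, 44.9 and 46.9 CPM in CON and at 92.7, 112 and 85.2 CPM in HFhf (log2 fold change 1.13 ± 0.18, adjusted p = 0.00089). Its levels were close together within each group, and its effect differed from that at ZT16 by 1.42 (adjusted p = 0.00209). Herpud1, which helps to clear misfolded proteins from the endoplasmic reticulum, was at 139, 109 and 194 CPM in CON and at 311, 282 and 316 CPM in HFhf (log2 fold change 1.04 ± 0.19, adjusted p = 0.0051). It was the one call among 25 genes of the unfolded protein response, whose median was 0.118. Without overlap 7 of the 25 lay above CON and 2 below, against 9.58% and 8.34% of all tested genes. Edem1 of that list was at 440, 379 and 398 CPM in CON and at 842, 651 and 717 CPM in HFhf. Its log2 fold change of 0.86 did not pass (adjusted p = 0.103). The chaperone Hspa5 lay at 646 to 695 CPM in CON and at 652 to 867 CPM in HFhf, overlapping. Herpud1 also differed by time in CON females, by 0.72.

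Further large falls and rises came from low or middling levels. Ryr2, a calcium release channel, was at 10.7, 2.64 and 9.96 CPM in CON and at 0.394, 0.858 and 0.974 CPM in HFhf (log2 fold change -3.40). Duoxa1 and Duox1, the maturation factor and the enzyme of one hydrogen peroxide generator, both fell, with log2 fold changes of -2.33 and -1.87, Duox1 being named after its values were seen. Phlda3, a target of p53, was at 25.3, 51.5 and 35.2 CPM in CON and at 4.89, 17 and 9.06 CPM in HFhf (log2 fold change -1.89). Cdkn1a, the p21 gene and another p53 target, was at 43.1, 130 and 69 CPM in CON and at 5.13, 19.6 and 5.46 CPM in HFhf, a gap without overlap that did not pass (log2 fold change -3.05, adjusted p = 0.063). Foxp2, a forkhead transcription factor best known from brain, rose from 0.996, 2.64 and 1.68 CPM to 9.07, 7.48 and 13.2 CPM (log2 fold change 2.47 ± 0.58, adjusted p = 0.0365). Tenm2, a teneurin adhesion protein, rose from 6.69, 4.23 and 2.20 CPM to 40.9, 15 and 25.7 CPM (log2 fold change 2.65 ± 0.54, adjusted p = 0.0115).

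**Figure D5:**
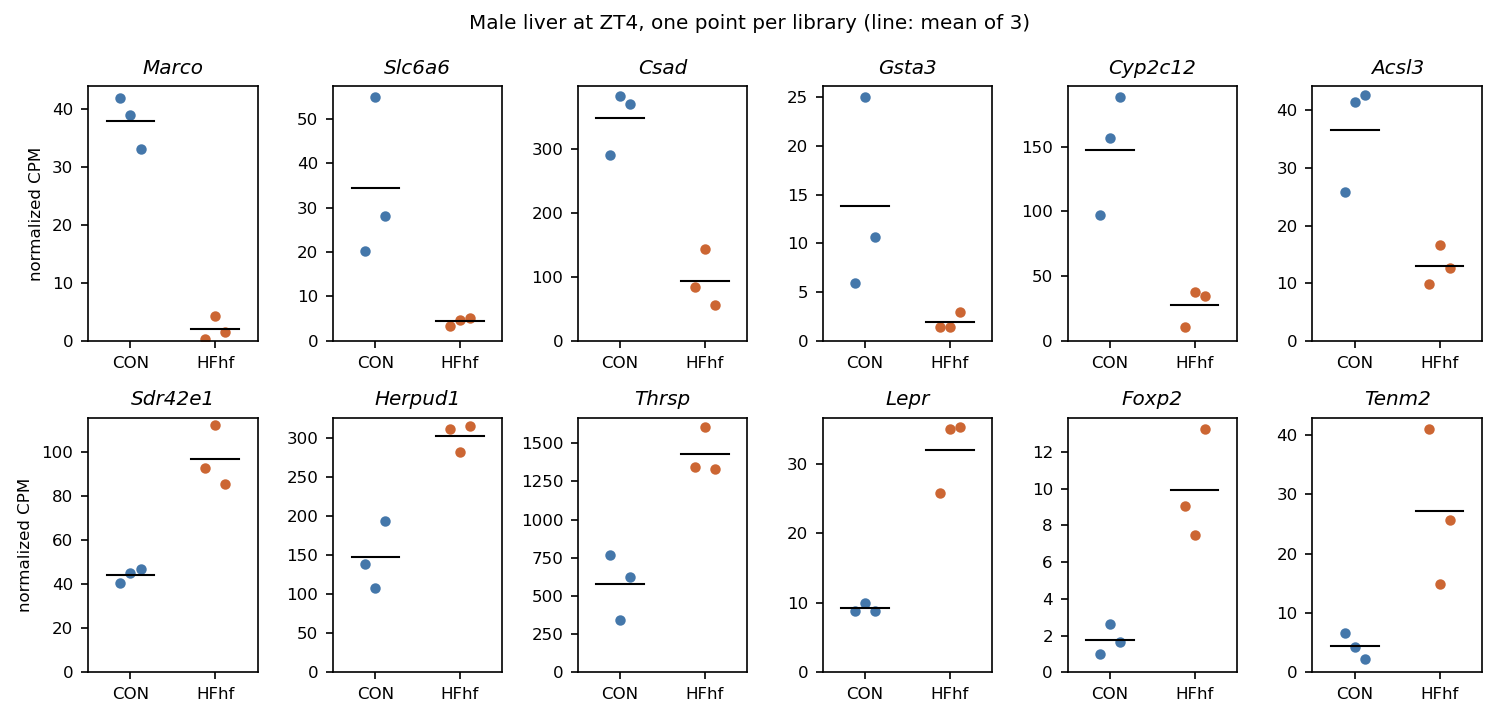
Normalized CPM (y axis, from 0) of 12 called genes in the 3 CON and 3 HFhf libraries of male liver at ZT4, 1 point per library and a line at the mean of 3. In none of the 12 do the groups overlap: Marco, Slc6a6, Csad, Gsta3, Cyp2c12 and Acsl3 are lower and the other genes higher in HFhf.

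Many lists held no call, and with 0.688% of all tested genes called, lists of such size may well hold none. Among these lists were drug metabolism (41 genes tested), bile acids and sterol transport (28), the integrated stress response (27) and heat shock (20). Insulin signalling (18), the growth hormone and IGF axis (18) and the glucocorticoid response (15) also held none. So did the interferon response (29, of which 24 had fold changes below 0), fibrosis and matrix (20), cell division (26) and oxidative phosphorylation (47). In drug metabolism 32 genes had fold changes below 0 and 9 above. Without overlap, 8 of its 41 lay below CON and 4 above, against 8.34% and 9.58% of all tested genes. In bile acids and sterol transport 21 were below 0 and 7 above. Fgf21, a hepatokine that fructose and fasting induce, was at 2.85, 3.70 and 7.24 CPM in CON and at 11.4, 6.25 and 14.8 CPM in HFhf, overlapping (log2 fold change 1.24, adjusted p = 0.556). Cyp7a1, the rate-limiting enzyme of bile acid synthesis, reached 209 CPM in HFhf replicate 2 and lay between 44.5 and 79.97 CPM in the other libraries.

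The same contrast was made with other libraries at ZT16 and in females, which may include littermates of these animals. In males at ZT16, where 103 genes were called (0.932%), 55 of the 76 had the same direction, 10 were also called that way and 2 were called the opposite way. The 10 are 13.2% of the 76 and 9.71% of the 103. The 2 with opposite calls were Ppard, described above, and Pus7, a pseudouridine synthase (log2 fold change 0.90 at ZT4 and -0.90 at ZT16), named after its values were seen. Csad was among the 10, with -2.11 at ZT16. In females at ZT4, where 128 were called (1.16%), 68 of the 76 had the same direction and 19 were also called that way, which is 25% of the 76 and 14.8% of the 128. None was called the opposite way there. Idi1 and Sqle fell in all 3 strata, with log2 fold changes of -1.81 and -2.09 in males at ZT16 and of -2.25 and -1.98 in females at ZT4. Hyal1, a hyaluronidase named after its values were seen, also fell in all 3 (-1.51, -1.51 and -1.46), and Foxp2 rose in all 3 (2.47, 2.07 and 3.10). Dbp was at 3.19 in females at ZT4, with adjusted p = 0.10.

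The difference of the HFhf effect between males and females at ZT4 was called for none of the genes (0%) with edgeR, which found 699 at an unadjusted p under 0.05, while DESeq2 called 7. Cyp2c12 had the fitted changes of -2.41 in males and 0.02 in females (difference -2.43 ± 0.68, adjusted p = 0.394). IUGR-HFhf against HFhf in males at ZT4 likewise gave no call (0%) with edgeR, 819 genes at an unadjusted p under 0.05 and 2 calls with DESeq2. Measured against the same CON libraries, Hmgcs1 was at -1.50, Idi1 at -2.54, Sqle at -2.09, Sdr42e1 at 1.24, Herpud1 at 1.17 and Dbp at 3.62 in IUGR-HFhf. These values share their CON libraries with those of HFhf and stand beside them only.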

How the data were processed

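RNA was sequenced from 56 livers, in 16 groups by sex, time and diet, of which 6 libraries make up the comparison described. The values used are raw read counts per gene as deposited by the authors. Per the submitters' processing notes, which give no versions, the tools were STAR, featureCounts of Subread, FastQC and DESeq2 and the build rn6, and the strand setting of the counting is not given in the sources used here. The log2 fold changes and adjusted p-values of the authors' deposited table were used only for the count credited to it.

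Genes were filtered with filterByExpr (11047 of 17337 kept, 2487 having no read), scaled by TMM and tested with edgeR 4.0.16 (R 4.3.3, limma 3.58.1) by the robust quasi-likelihood test with 1 mean per group (40 residual degrees of freedom) and Benjamini-Hochberg adjustment. CPM values use the TMM library sizes, except the hepatocyte and skeletal muscle sums, which use total counts. A gene was called at an adjusted p under 0.05. DESeq2 1.42.0, other scaling, filters and library sets, and leaving out each library were alternatives. Self-tests were run on simulated data. No per-sample column was left unused. Promoters came from RefSeq on GRCr8, matched by symbol for 8929 tested genes.

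Named genes are the 12 largest rises and falls among called genes at 1 CPM or more whose groups do not overlap, up to 4 called genes and up to 2 of the smallest p in each list, a set of known diet-responsive genes, and up to 5 in each direction for each difference of effects. Outside that rule, Bhlhe40, Ciart, Clec4f, Cry1, Cyp51, Fdps, Hsd17b7, Hspa5, Msmo1, Rnf125, Tef, Tm7sf2, Ttc7b and Ugcg were chosen after their values were seen. The members and lists were chosen with earlier results of these data known. The median 95% interval of a log2 fold change reached 0.415 to either side, from the spread between libraries in the fit over all 56. Some results are not reported here.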

Additional observations from a re-analysis of the deposited data

Results flagged for a closer look

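In male liver the HFhf effect differed between ZT4 and ZT16 by the interaction test of edgeR for 13 of the named genes, given here as the effect at ZT4 minus that at ZT16 on the log2 scale. Among clock genes the difference was 6.87 for Dbp, 5.35 for Nr1d1, 5.03 for Per3, 2.87 for Nr1d2, -6.44 for Npas2, -4.10 for Arntl and -1.53 for Nfil3. Outside the clock it was 4.58 for Hsd17b2, 1.42 for Sdr42e1, -1.93 for Acsl3, -3.23 for Ppard, -3.64 for Tubb2a and -4.22 for St8sia1. Tubb2a, a tubulin, had fitted changes of -1.31 at ZT4 and 2.33 at ZT16, and St8sia1, a sialyltransferase, of -1.57 and 2.66. Each time was sampled in different animals.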

How the results depend on the processing

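The number of genes called in males at ZT4, 76 (32 higher, 44 lower), moved with the processing. It was 31 (13 and 18) with no filter on low counts, 139 (59 and 80) with DESeq2, 158 (69 and 89) from the 6 libraries alone, 162 (70 and 92) without the IUGR-RC libraries, and 46 (12 and 34) where a log2 change of at least 1 was also asked. Of 2 alternatives chosen after seeing the data, thinning to equal depth gave 54 (25 and 29) and leaving out 4 libraries of other groups, with muscle transcripts or time-of-day genes off their label, 131 (53 and 78). Among the 4 was HFhf replicate 3 of males at ZT16, which enters the differences between the times. Without the 4, these differences numbered 68, with 44 of the 50 among them. Leaving out 1 library gave 2 to 84 calls, 1 to 32 higher and 1 to 52 lower. The 50 differences between ZT4 and ZT16 became 79 with DESeq2, 88 from the groups compared alone, 116 without the IUGR-RC libraries and 25 to 63 with a library left out. Differences between males and females numbered 7 with DESeq2, 1 from the groups alone and 0 to 1 with a library left out (1 without HFhf female replicate 3 at ZT4), and IUGR-HFhf against HFhf gave 2, 1 and 0 to 2 (2 without IUGR-HFhf replicate 1). The cause of these moves was not tested. For the 131 named genes, 1538 values kept their side of the threshold, 206 fell short of it and 77 passed it. No called gene among them changed sign, which groups without overlap make all but certain. Among those not called, 11 values of 7 genes did (Abcg5, Cela1, Csf3r, Cyp7a1, Hbb, Igfbp1 and Ndufa2). No paired analysis was possible because the replicate numbers follow the order of deposit and the labels pair no animals. Depth limits genes at a few CPM, such as Ciart, and with 3 libraries a group many sizeable changes did not pass.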
